A study of Mus musculus with 22 samples.

Results

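C1q-positive cells of the terminal ileum were described here: 70 of the 1383 barcodes kept as cells from a sort gate for donor neutrophils. They were selected on their transcripts of C1qa, C1qb and C1qc, the genes of the complement component C1q: a cell needed a total of at least 500 transcripts and a C1q sum of at least 3. The 70 cells came from 27 of 358 kept barcodes of control mice and 43 of 1025 of mice with acute graft-versus-host disease (aGVHD). They are set beside 688 reference cells, which had a sum of S100a8 and S100a9, the calprotectin genes that neutrophils express strongly, of at least 5 and a C1q sum of at most 2. Both classes were chosen by measured values, so differences between them are given as a description with no test.

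The mice were female BALB/c recipients aged 7 to 9 weeks. All were irradiated with 2 doses of 5 Gy given at least 4 h apart and then received 5000000 bone marrow cells from female C57BL/6N donors aged 7 to 10 weeks. The aGVHD group also received 400000 donor T cells, and the control group received none, so irradiation and the allogeneic marrow graft were shared by both groups. On day 21, cells that carried CD45, the donor class I molecule H2kb, CD11b and Ly6G at the surface were sorted from the terminal ileum, and their RNA was read by CEL-Seq2, a plate-based method in which transcripts are tagged with molecular identifiers and read at the 3′ end. There were 10 control and 12 aGVHD libraries. By their titles they form a dated set (6 control, 8 aGVHD) and a G1 set (4 of each). The labels do not say which mouse gave which library, so the p-values rest on variation among libraries, some or all of which may be technical.

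C1q is the recognition part of the classical complement pathway. Its A, B and C chains are encoded by neighbouring genes, and tissue macrophages are the main source of the protein, unlike most serum proteins, which come from the liver. In the intestine, macrophages are continually replaced from blood monocytes that lose Ly6C and Ccr2 as they gain MHC class II, Cx3cr1 and C1q. These cells engulf dying epithelial cells and neutrophils, and they are not normally part of a Ly6G gate.

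The 250 bases upstream of the start of C1qb and C1qc are shown because their transcripts chose the cells, and those of Ccl8, a chemokine of tissue macrophages, because it was the marker of these cells found in the fewest of them. The sequences are from RefSeq on GRCm38.p6, 5′ to 3′ along the gene's strand, at chr4:136886201-136886450 (minus) for C1qb, chr4:136892915-136893164 (minus) for C1qc and chr11:82114935-82115184 (plus) for Ccl8. Capitals mark matches, on either strand, to GAGGAA, a core letter run bound by the myeloid factor PU.1.
C1qb: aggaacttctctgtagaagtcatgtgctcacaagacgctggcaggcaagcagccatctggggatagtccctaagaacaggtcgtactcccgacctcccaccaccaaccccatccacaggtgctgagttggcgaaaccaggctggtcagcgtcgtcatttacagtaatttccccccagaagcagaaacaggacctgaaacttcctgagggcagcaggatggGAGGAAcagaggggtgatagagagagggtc
C1qc: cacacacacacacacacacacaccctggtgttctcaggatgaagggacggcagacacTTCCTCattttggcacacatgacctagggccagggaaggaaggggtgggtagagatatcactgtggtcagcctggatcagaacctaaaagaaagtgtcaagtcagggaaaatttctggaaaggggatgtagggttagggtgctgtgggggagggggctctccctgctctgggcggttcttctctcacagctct
Ccl8: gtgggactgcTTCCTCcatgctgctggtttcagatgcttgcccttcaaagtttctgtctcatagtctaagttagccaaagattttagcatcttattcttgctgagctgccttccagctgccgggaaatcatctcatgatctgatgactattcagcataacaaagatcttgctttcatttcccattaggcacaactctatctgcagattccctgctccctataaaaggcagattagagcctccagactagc

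Each of the 3 windows held 1 match to GAGGAA, read on the other strand in C1qc and Ccl8. Of 32851 RefSeq promoter windows of this length, 23.3% held these letters, so such a match is common, and it describes the letters only.

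Totals per library ran from 45607 to 360054 transcripts, and all libraries share the same barcode numbers, so shared numbers say nothing about shared cells. Control libraries held 11 to 60 kept barcodes and aGVHD libraries 74 to 95. The cells selected on C1q were deep: the median total per cell was 8752 transcripts in control and 7585 in aGVHD libraries, against 2777.5 and 2453.5 in reference cells. Their totals ran from 644 to 39022. A sum of at least 3 is reached more easily in a deep barcode, so depth is given beside the comparisons below. No doublet caller was run.

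C1q transcripts were unevenly spread over the 70 cells. C1qb was found in 68 of them (1131 transcripts), C1qc in 56 (588) and C1qa in 51 (474), and 45 cells held all 3 chains. The median C1q sum was 15 in control and 9 in aGVHD cells, with a highest value of 244 in an aGVHD cell, and the 10 cells with most C1q held 57.6% of it. Just inside the threshold, 9 cells had a sum of 3 and 9 a sum of 4; just outside it, 41 kept barcodes had a sum of 2, and 1085 had none.

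**Figure D1:**
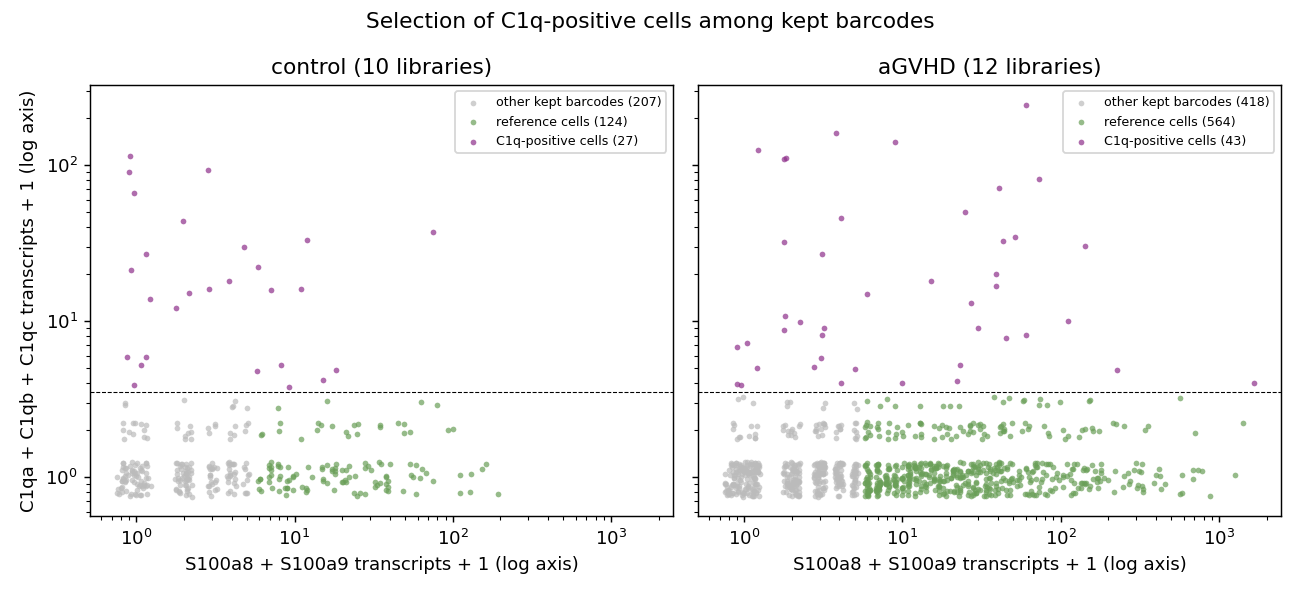
C1q sum (y axis) against S100a8 + S100a9 sum (x axis) of each kept barcode, in transcripts plus 1 on log axes with small random shifts, for control (left) and aGVHD (right) libraries; the dashed line marks the C1q threshold. The 27 control and 43 aGVHD cells above the line have S100 sums from 0 to 1666, and 32 of the 70 have an S100 sum of at least 5.

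The background of C1q was read in barcodes below 500 transcripts; whether these hold free RNA, exchanged barcodes or small cells was not tested. Of 1562 such barcodes in control libraries, 61 held any C1q transcript and 2 reached a sum of 3; in aGVHD libraries 47 of 1279 did and 5 reached it. Pooled, they held 4.91 C1q transcripts per 10000 transcripts of all genes in control and 3.61 in aGVHD libraries. The selected cells held 28.2 and 42.4, and the reference cells, limited to a sum of 2 by their definition, 0.609 and 0.657. The block of 96 barcodes that received almost no cells in each library gave 3.63 and 3.78. Pooled, C1q was thus several times more frequent in low-total barcodes than in reference cells, and less frequent than in the selected cells. This order depends partly on the rule, which chose both classes by C1q. Single selected cells lay below the pooled low-total level of their group. Examples are 3 C1q transcripts of 17265 in a cell of aGVHD replicate 7 and 4 of 13165 in control replicate 1. Whether each selected cell stood above the background was not tested.

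Of the markers that did not choose the cells, the class II gene H2-Ab1 was found in 68 of 70 cells, the lipid carrier gene Apoe in 65 and Ccl8 in 16. H2-Ab1 and Apoe occurred together in 64 cells, all 3 in 15, and 1 cell had none of them. Of the 295 Ccl8 transcripts, 246 came from 5 cells. Ccl8 thus marked a minority, and the cells are called C1q-positive here by their rule, not by a macrophage subtype. S100a8 and S100a9 together reached 5 transcripts in 32 of the 70 cells, 10 control and 22 aGVHD, with a median of 25 and a highest value of 1666. The median C1q sum was 14.5 in those 32 cells and 12 in the other 38, and their median totals were 7795.5 and 7909. Whether such barcodes hold 1 cell or more was not tested.

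Genes of tissue macrophages were mostly higher than in reference cells. Levels here are transcripts per 10000 transcripts of named genes, pooled over cells, and ratios are medians, over the 12 libraries with at least 3 C1q-positive cells, of the log2 ratio of CPM (transcripts per 1000000 of named genes) plus 10. Of the 30 genes in the macrophage list, 29 had a transcript in the 70 cells and 17 had at least 50; 16 of these 17 had a median ratio above 0, with a median of 1.90, against 705 of all 1300 genes of that abundance and a median of 0.10. Apoe stood at 49.99 in C1q-positive cells, 2.37 in reference cells and 13.3 in low-total barcodes, with a log2 ratio of 3.81 and higher levels in 12 of 12 libraries. Sepp1, which encodes the selenium carrier selenoprotein P, stood at 8.08, 0.390 and 1.20, and was higher in 12 of 12 libraries.

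Csf1r, the receptor for the macrophage growth factor CSF1, stood at 7.90 against 1.90, and Mrc1, the mannose receptor, at 2.39 against 0.140. Low-total barcodes held 1.35 of Mrc1, a level between those of the selected and the reference cells. Cx3cr1, the fractalkine receptor of intestinal macrophages, was found in 18 cells and stood at 1.21 against 0.037, with none in low-total barcodes. Genes of long-lived resident macrophages were nearly absent: Cd163 and Timd4 had 1 transcript each in the 70 cells, and Folr2 had 5. Lyve1 had 13, and its level of 0.302 lay below that of low-total barcodes, 5.81.

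Class II genes were abundant. H2-Aa held 100.95 transcripts per 10000 in C1q-positive cells against 10.96 in reference cells and 25.4 in low-total barcodes. H2-Eb1 stood at 76.3 against 8.57, and H2-Ab1 at 69.3 against 7.63. All 7 class II genes with at least 50 transcripts had a median ratio above 0, with a median of 2.997; H2-DMa, which loads peptides onto class II, had 3.21. All 16 such genes of the lysosome list did so too, with a median of 1.41: Psap, a saposin precursor, stood at 31.8 against 6.25, and Ctss, a protease that processes the class II invariant chain, at 26.7 against 7.16. Class I genes did not share this pattern, with 2 of 7 above 0 and a median of −0.17. Among the most abundant genes, Lyz1 reached 94.2 against 17.96, but its reads can be split with the near-identical Lyz2, so its level is uncertain.

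Among chemokines, 7 of 13 genes of that abundance had a median ratio above 0, with a median of 0.50. Cxcl16, a membrane-bound chemokine for CXCR6, stood at 3.16 against 0.155 (log2 ratio 4.63, higher in 11 of 12 libraries). Ccl5, a chemokine of T cells and macrophages, stood at 6.18 against 0.169 (log2 ratio 3.62, 10 of 12), and Ccl8 stood at 6.85 against 0.096. Of the 266 Ccl5 transcripts, 77 were in 3 cells of aGVHD replicate 7 and 71 in 4 cells of control replicate 8. Another 61 were in 2 cells of aGVHD replicate 4. At least 5 transcripts of T and NK cell genes were held by 1 of these cells in aGVHD replicate 7 and 2 in control replicate 8. In those cells Ccl5 stood at 19.1, 13.3 and 27.4. Gdf15, a stress-induced cytokine, had 72 transcripts in 14 C1q-positive cells and none in reference cells. Other genes of the 20 with the highest ratios were Ly86 and Cd83, surface proteins of antigen-presenting cells, Aif1, a macrophage actin-binding protein, Axl, a receptor for dying cells, Nrp1, Gbp2b and Arl5c.

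Neutrophil genes were lower than in reference cells. For S100a8 and S100a9 the definitions favour this, as they set a minimum in reference cells only. None of the 21 neutrophil-list genes with at least 50 transcripts had a median ratio above 0, and their median was −2.29. Retnlg, a resistin-like protein of neutrophils, had the lowest ratio of all, −4.63, at 3.79 against 36.9. Other genes with the lowest ratios were the short-chain fatty acid receptor Ffar2 (−3.55), the collagenase Mmp8 (−3.14) and the chemokine Cxcl3 (−3.16). Ly6g, the gene of the sorted surface antigen, had 20 transcripts in 5 C1q-positive cells, all in aGVHD libraries, and 225 in reference cells. These counts cover 70 and 688 cells and do not compare levels. Most of the 20 came from the aGVHD replicate 7 cell with an S100 sum of 1666. It held 14680 transcripts of named genes at a Ly6g level of 8.86. After thinning each cell to 1000 transcripts, Ly6g was found in 2.94% of C1q-positive cells (exact binomial interval 0.358 to 10.2). In reference cells it was found in 5.30% (3.70 to 7.32), and the intervals overlapped. Itgam, which encodes CD11b, stood at 4.20 against 7.07. Il1b, an inflammatory cytokine, stood at 49.2 against 99.5.

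**Figure D2:**
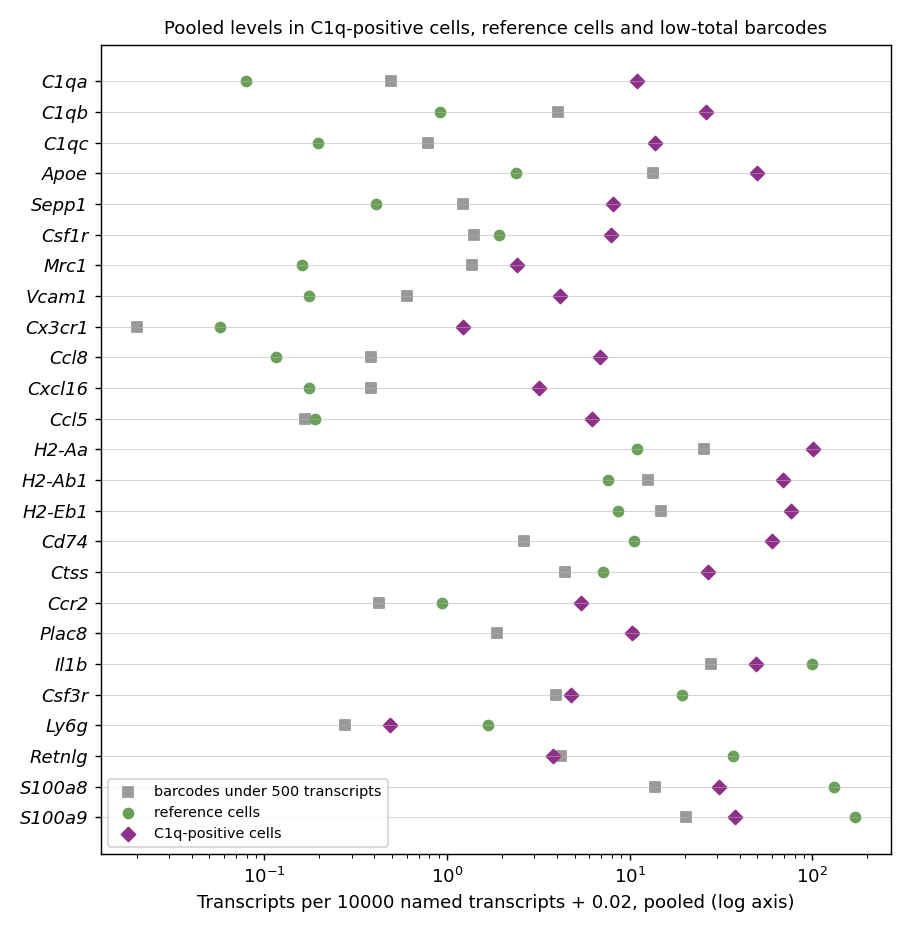
Pooled level of each named gene (y axis), in transcripts per 10000 transcripts of named genes plus 0.02 on a log axis, in C1q-positive cells (diamonds), reference cells (circles) and barcodes under 500 transcripts (squares). Macrophage and class II genes are highest in C1q-positive cells, while Apoe and the C1q chains are higher in low-total barcodes than in reference cells.

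Markers of other lineages were sought in the same cells. The 26 neutrophil markers summed to 24.8 to 100.8 transcripts per 10000 in the 4 control libraries with at least 3 C1q-positive cells and to 27.8 to 545 in the 8 such aGVHD libraries; Ly6g, Ngp, Camp, Ltf and Cd177 were at 0 in the control cells. The 16 T and NK markers summed to 0.847 to 25.3 and to 0 to 22.6, with 15 of 16 detected in each group and Trac at 0 in both. At least 5 T and NK transcripts were found in 6 of 27 control and 2 of 43 aGVHD cells. The median total of these cells was 16784.5 against 7394.5 in the other 62. Among all the other kept barcodes, 5 control and 3 aGVHD ones held as many. Kept barcodes numbered 358 and 1025 in all, C1q-positive cells included. Pooled, the T and NK list stood at 17.1 in control and 6.48 in aGVHD C1q-positive cells, against 1.01 and 1.37 in reference cells. Gzmb, a granule protease of cytotoxic cells, reached 53 transcripts in a single cell of aGVHD replicate 7. The 17 epithelial markers (Lyz1 left out) summed to 0 to 55.8 and to 0 to 12.6, and the 12 B and plasma cell markers to 0 to 1.24 and to 0 to 44.97; in reference cells these lists were higher, with pooled sums of 154.4 and 282 in control and 25.2 and 109.4 in aGVHD libraries. The 17 dendritic cell markers summed to 8.68 to 16.9 and to 4.83 to 14.6, with Flt3 at 0 in both groups and Zbtb46 at 0 in control cells. Pooled, this list was higher in C1q-positive than in reference cells, with 14.96 against 7.45 in control and 8.56 against 5.25 in aGVHD libraries. Low-total barcodes held 9.20 and 7.26. All 3 of its genes with at least 50 transcripts had a median ratio above 0, with a median of 0.83. Whether some C1q-positive cells were dendritic cells was not tested. The part of these other lineages in the results below was not tested, except where values without the T and NK cells or the S100-rich cells are given.

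The 70 cells differed among themselves. After thinning each to 1000 transcripts, which left out 2 aGVHD cells, H2-Ab1 was found in 82.4% of 68 cells (95% exact binomial interval 71.2 to 90.5) against 21.96% of 642 reference cells (18.8 to 25.4). Intervals cover counting error only. Apoe was found in 64.7% (52.2 to 75.9) against 13.9%, and Ccr2, the receptor that monocytes use to leave the marrow, in 22.1% (12.9 to 33.8) against 2.65%. The monocyte list that holds Ccr2 did not share its direction. Of its 8 genes with at least 50 transcripts, 2 had a median ratio above 0, with a median of −0.68. Its 14 genes summed, pooled, to 29.9 in control and 47.7 in aGVHD C1q-positive cells, against 50.7 and 60.9 transcripts per 10000 in reference cells. Ccl8 was found in 14.7% (7.28 to 25.4) against 0.623%. Il1b did not separate the classes, with 85.3% (74.6 to 92.7) against 88.8% (86.1 to 91.1). Without thinning, H2-Ab1 was in 97.1% and Apoe in 92.9% of C1q-positive cells.

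Of 421 named genes found in 20% to 80% of the thinned cells, S100a8 and S100a9 varied most from cell to cell, with Fano factors (variance over mean) of 26.7 and 20.1. Apoe followed with 10.2, then the unnamed transcript RP23-341H2.4 with 9.50, the chemokine gene Ccl3 with 7.86 and the NF-κB inhibitor gene Nfkbia with 6.30. H2-Eb1, Irg1 (the itaconate-producing enzyme), Vim and Cxcl10 made up the rest of the 10.

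Macrophage genes were higher in cells with more C1q, the count that also chose the cells. In the 26 cells with a C1q sum of at least 20, Apoe stood at 70.04 transcripts per 10000, against 22.8 in the 44 cells below that sum. Vcam1, an adhesion molecule of some macrophages, stood at 6.90 (16 cells) against 0.383 (3 cells), and Ccl8 at 11.3 (9 cells) against 0.875 (7 cells). Sepp1 stood at 11.1 against 4.05. S100a8 was opposite in level, with 8.60 against 61.1. Of the 1116 transcripts in the cells below a sum of 20, 804 came from a single cell of aGVHD replicate 7. Without that cell the level was 18.6. By number of cells, S100a8 was found in 18 of the 26 and in 26 of the 44. Plac8, a gene of monocytes and neutrophils, was also opposite in level, with 5.97 against 16.1. Ccr2 differed little, with 5.21 against 5.63. The cells with more C1q were also deeper, with a median total of 10614 against 5871, and 9 cells lay within 5 of the value that divides the ranges, so these are ends of a range and not types.

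**Figure D3:**
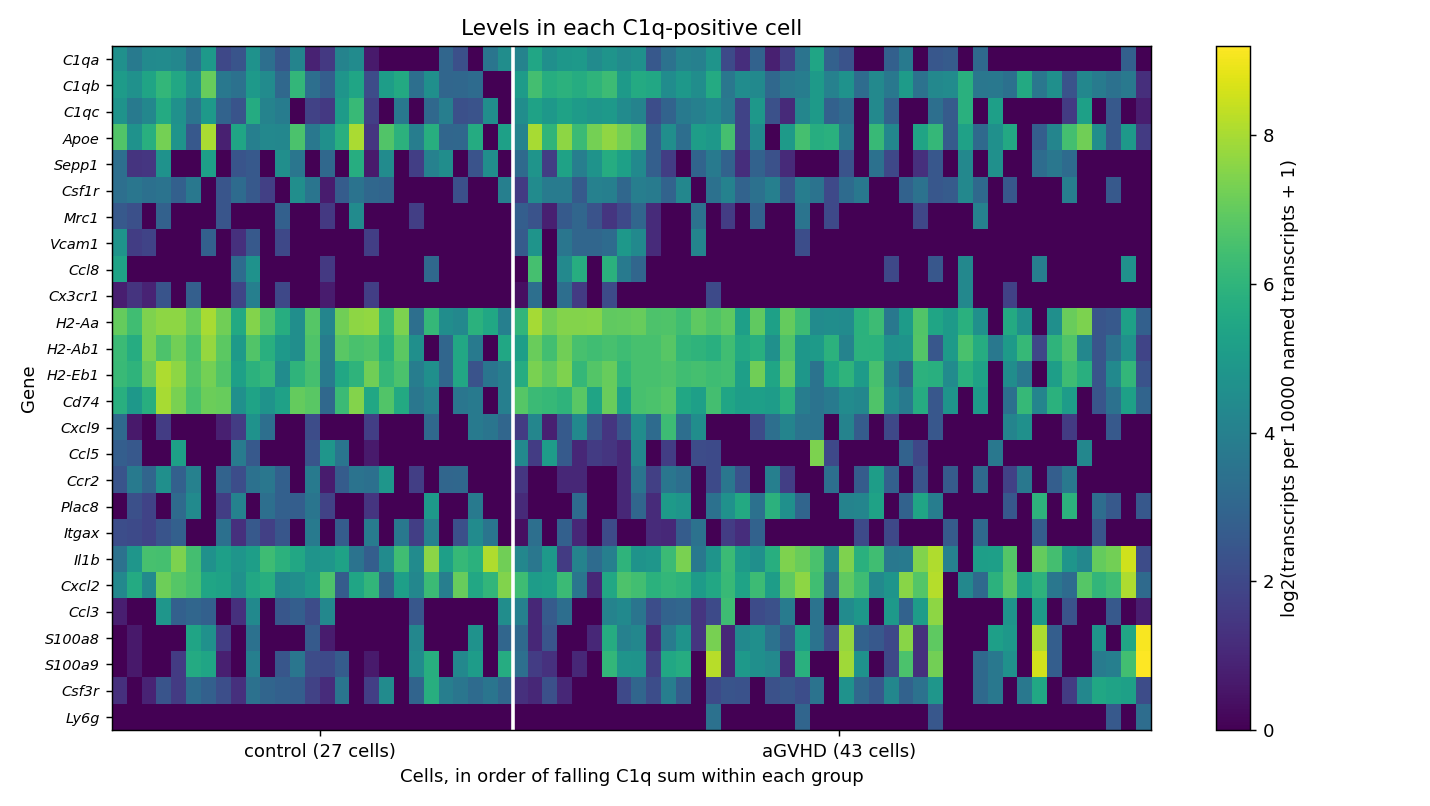
Each column is a C1q-positive cell, in order of falling C1q sum within control (left of the white line) and aGVHD; colour gives log2 of transcripts per 10000 transcripts of named genes plus 1 for each gene (y axis). Class II genes and Apoe are present along nearly the whole row, and Vcam1 and Ccl8 mostly at the high-C1q end. S100a8 was found in 10 of the 27 control and 34 of the 43 aGVHD cells, and the highest S100a8 and S100a9 values are in aGVHD cells.

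The first comparison between groups asked how many of the sorted cells were C1q-positive with and without donor T cells. They were 7.70% ± 5.12 (SD, n = 10) of kept barcodes in control libraries, with a lowest, median and highest value of 0%, 6.80% and 16.7%. In aGVHD libraries they were 4.15% ± 2.20 (SD, n = 12), with 0%, 4.81% and 6.74%. The difference of −3.55 percentage points was past the threshold of 0.05 in a two-sided permutation test of the group labels within title sets (p = 0.0381). The groups overlapped: 5 of 10 control shares lay below the highest aGVHD share. The value was −4.20 points in the dated set (exact permutation p = 0.0353) and −2.16 in the G1 set (exact permutation p = 0.543).

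The number of C1q-positive cells did not fall with the share. Control libraries held 2.70 ± 2.11 (SD, n = 10) such cells and aGVHD libraries 3.58 ± 1.98 (SD, n = 12), a difference of 0.88 (two-sided permutation p = 0.337). Kept barcodes per library were 35.8 ± 20.1 in control and 85.4 ± 6.08 in aGVHD libraries, so the denominators of the share did not overlap. The largest share, 16.7%, was 2 cells of 12 in control replicate 5, and without that library the difference was −2.56 points (permutation p = 0.0798, exact). It was also past the threshold no longer after thinning every barcode to 500 transcripts and lowering the C1q sum to at least 1 (−2.31, permutation p = 0.256) or without the 8 cells rich in T and NK transcripts (−2.15, permutation p = 0.243). The median total of C1q-positive cells per library differed by −0.35 on the log2 scale (exact permutation p = 0.239).

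**Figure D4:**
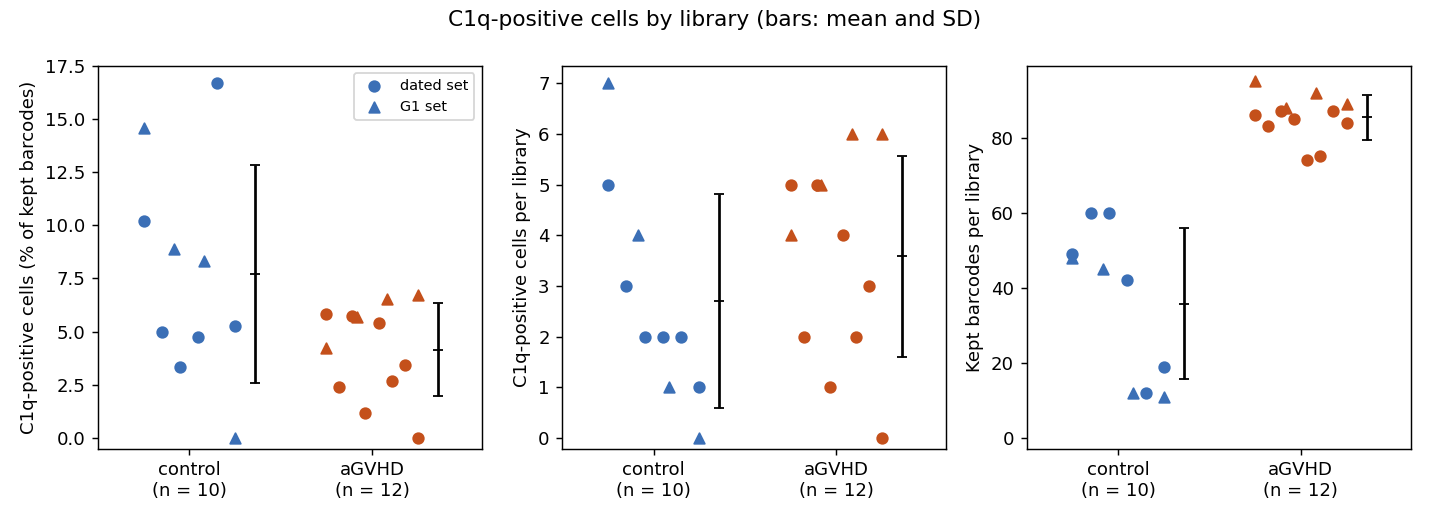
Share of C1q-positive cells among kept barcodes (left, in percent), their number (middle) and the number of kept barcodes (right) in each control and aGVHD library, circles for the dated and triangles for the G1 set, with mean and SD as bars. The shares and numbers overlap between the groups, and the kept barcodes, 11 to 60 against 74 to 95, do not.

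The second comparison asked which genes differed between aGVHD and control within C1q-positive cells. Transcripts were summed over these cells in each library with at least 3 of them (control replicates 1, 2, 7 and 8 and aGVHD replicates 1, 2, 3, 4, 5, 7, 9 and 11), which left 57 of the 70 cells, and limma with voom weights and the title set as a covariate was fitted to 429 genes. No gene passed an adjusted p of 0.05 (0% of 429; smallest adjusted p 0.184, Benjamini-Hochberg, limma). At an unadjusted p below 0.05 there were 34 genes (7.93%), 21 higher and 13 lower in aGVHD. With limma on log2(CPM + 10) without weights, 0 passed and 13 had an unadjusted p below 0.05. With all gene models in the library totals the 34 became 17, split 15 to 2, and the median log2 difference of all genes moved from −0.0041 to 0.13. The balance of directions also turned: it was 3 higher to 17 lower without the cells rich in T and NK transcripts, 9 to 16 without control replicate 8, 1 to 7 in the dated set and 9 to 10 without the set as a covariate. Every value that follows is therefore a measured difference that did not pass the test, and n is 4 control and 8 aGVHD libraries throughout.

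The C1q chains themselves, which the rule used, are given with no test. C1qb stood at 3625, 2033, 1984 and 1169 CPM in control replicates 1, 2, 7 and 8, and at 847 to 4127 CPM with a median of 2957 in the aGVHD libraries. C1qa ran from 606 to 1178 CPM in control and from 105.9 to 1948 in aGVHD libraries. The ranges of both genes in aGVHD libraries contained those of the control libraries.

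Class II and Apoe levels in the 2 groups overlapped almost entirely. H2-Ab1 stood at 6283, 9773, 4960 and 5543 CPM in the control libraries and at 3126 to 10737 CPM with a median of 6115 in aGVHD libraries, a fitted log2 difference of −0.08 ± 0.31 (SE; adjusted p = 0.926, limma). Apoe stood at 8821, 1748, 2356 and 3869 CPM in control and at 858 to 14233 CPM with a median of 3836 in aGVHD libraries (0.14 ± 0.65, SE; adjusted p = 0.926, limma). Ccl8 was at 0 in control replicates 1 and 2 and in aGVHD replicates 1 and 11, and reached 1105 CPM in control replicate 8 and 3144 CPM in aGVHD replicate 5. Its weighted log2 difference was −0.28 ± 1.68 (SE; adjusted p = 0.938, limma), opposite in sign to the difference of the mean CPM, 315 in control and 892 in aGVHD libraries. Among the 6 class II genes tested, 1 had a positive difference and the median was −0.15.

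The smallest p values among genes with higher values in aGVHD belonged to Tgfbi, an extracellular matrix protein made by macrophages. It stood at 846, 285, 589 and 347 CPM in control replicates 1, 2, 7 and 8, and at 529 to 1348 CPM with a median of 931 in aGVHD libraries (log2 difference 1.28 ± 0.28, SE; adjusted p = 0.184, limma). Control replicates 1 and 7 lay within the aGVHD range, and replicates 2 and 8 below it. Wfdc17, a small secreted protein of myeloid cells, stood at 0, 142.7, 124.01 and 142.1 CPM in control and at 176.5 to 1263 CPM in aGVHD libraries (2.14 ± 0.63). Slfn2, a Schlafen gene that keeps immune cells quiescent, stood at 0, 142.7, 248 and 268 CPM in control and at 353 to 915 CPM in aGVHD libraries (1.27 ± 0.42). These 2 genes were the tested genes in which every aGVHD library lay above every control library (0.466% of 429), and no gene had the opposite arrangement (0%).

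Ccl3, a chemokine of inflammatory myeloid cells, stood at 362, 250, 217 and 505 CPM in control and at 57.2 to 2484 CPM with a median of 1309 in aGVHD libraries (1.90 ± 0.60). In 6 of 8 aGVHD libraries it lay above all control values, and in replicates 5 and 11 it did not. The others of the 10 genes of smallest p in this direction were AW112010 (1.08), the chaperone gene Hsp90aa1 (0.96), Serinc3 (1.04), the polyamine-acetylating enzyme gene Sat1 (1.22), the mRNA decay factor gene Zfp36l1 (0.86) and the transcription factor gene Cebpb (0.69), with adjusted p values of 0.475 each in limma. In these 12 libraries the summed neutrophil markers ran up to 100.8 transcripts per 10000 in control and up to 545 in aGVHD, and Wfdc17 is among those markers. Leaving out the cells rich in S100 transcripts kept 26 cells in 7 libraries and no gene passed the test. None had passed with those cells included either, so this count cannot decide what part they had in these differences.

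Among genes with lower values in aGVHD, Itgax, which encodes CD11c, stood at 242, 464, 465 and 474 CPM in control and at 57.2 to 599 CPM with a median of 140 in aGVHD libraries (−1.48 ± 0.40, SE; adjusted p = 0.360, limma). Bhlhe40, a transcription factor of activated immune cells, stood at 362, 571, 961 and 663 CPM in control and at 0 to 561 CPM with a median of 285 (−2.11 ± 0.61). Mbnl1, a splicing regulator, stood at 362, 535, 558 and 758 CPM in control and at 114.3 to 442 CPM with a median of 228 (−1.05 ± 0.29). Ccr2 stood at 846, 785, 992 and 458 CPM in control and at 162.4 to 957 CPM with a median of 415 (−1.14 ± 0.44; adjusted p = 0.475, limma). In all of these the groups overlapped, Ccr2 through aGVHD replicates 1, 5, 9 and 11. The remaining genes of the 10 were Lars2 (−1.59), Mycbp2 (−1.17), Serbp1 (−0.80), Prkcd (−1.16), mt-Atp8 (−1.21) and Dusp5 (−1.22).

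**Figure D5:**
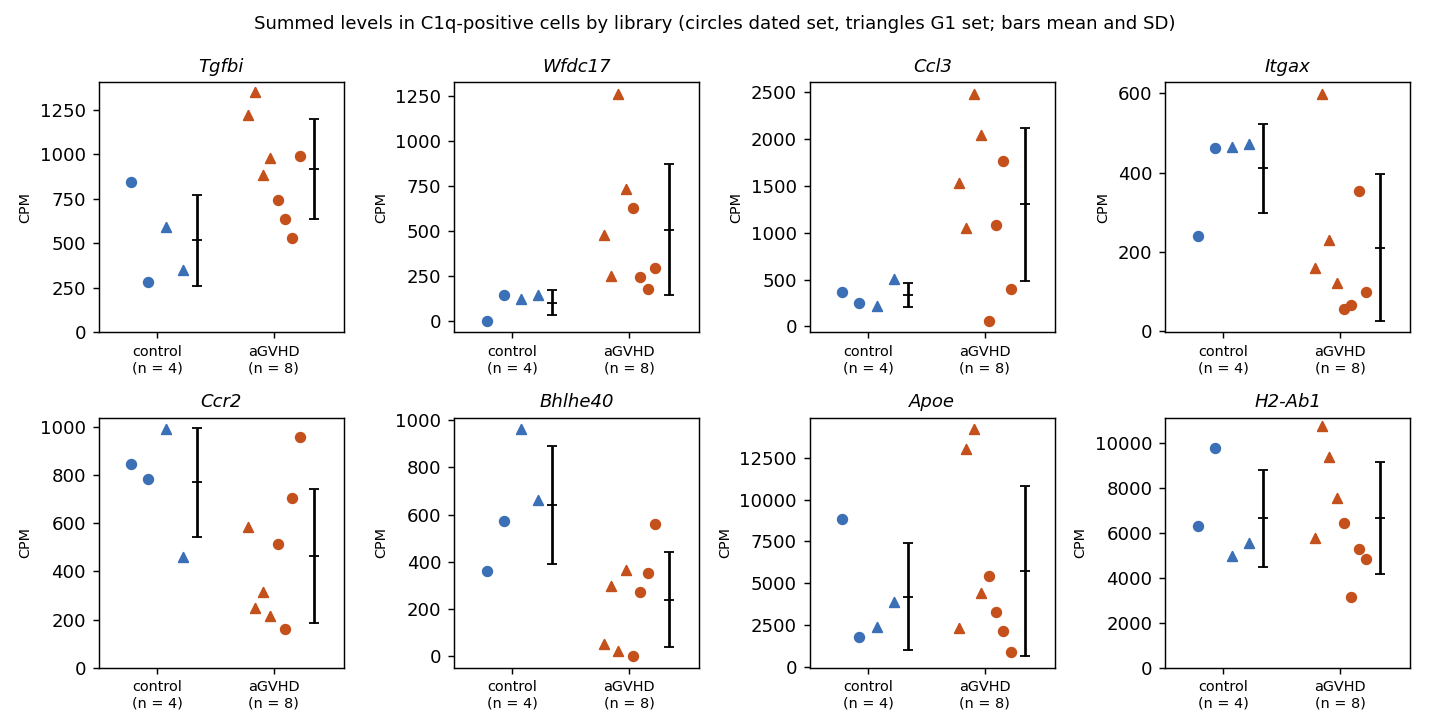
Summed level of 8 genes in the C1q-positive cells of each library, in CPM, for 4 control and 8 aGVHD libraries, circles for the dated and triangles for the G1 set, with mean and SD as bars. Wfdc17 separates the groups, Tgfbi, Ccl3, Itgax, Ccr2 and Bhlhe40 overlap, and for Apoe and H2-Ab1 the aGVHD libraries span a wider range that contains the control values.

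The gene lists gave the same count of passed tests, 0 in each. Over all 429 genes tested, 213 had a positive difference and 34 (7.93%) had an unadjusted p below 0.05. The lists were counted in the main fit only, not under the settings in which the balance of directions turned. Of 9 chemokines tested, 8 had a positive difference, with a median of 0.69 against −0.0041 over all 429 genes; 2 of them, Ccl3 and Ccl4, had an unadjusted p below 0.05. Ccl4 stood at 242, 499, 155.01 and 173.7 CPM in control and at 65.995 to 2962 CPM with a median of 551 in aGVHD libraries (2.50 ± 1.02; adjusted p = 0.477, limma). All 4 cytokine genes tested (Il1b, Tnf, Il1rn and Il1a) had positive differences, with a median of 1.06 and none at an unadjusted p below 0.05. Of the 8 macrophage genes tested, 6 were positive with a median of 0.32, and Fcgr3, a receptor for immunoglobulin G, had an unadjusted p below 0.05 (580 ± 230 CPM in control, 819 ± 349 in aGVHD, SD). All 13 immediate early genes, which respond within minutes to stimulation or tissue digestion, were positive with a median of 0.62, and 3 had an unadjusted p below 0.05, among them Fos (1585 ± 377 against 3172 ± 1904 CPM) and Jun (553 ± 766 against 1243 ± 1245 CPM).

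Interferon-response genes were also mostly positive without passing the test, beside 213 positive of all 429 genes. Of 7 genes of the interferon gamma list tested, 5 had positive differences, with a median of 0.44, and Cxcl9, a chemokine for CXCR3, stood at 0, 35.7, 465 and 284 CPM in control and at 176.5 to 2739 CPM with a median of 646 in aGVHD libraries (1.42 ± 0.88; adjusted p = 0.758, limma). Cxcl10, its partner, overlapped fully, with 124.01 to 2211 CPM in control and 0 to 2198 CPM in aGVHD libraries. All 3 type I interferon genes tested were positive, with a median of 0.64. Of the 12 lysosome genes, 11 were positive with a median of 0.47. The 72 ribosomal protein genes had a median of −0.15 and the 14 mitochondrial genes −0.23, with 15 and 0 positive. Of the monocyte list, 4 genes were tested, 3 positive, and Ccr2 was the one with an unadjusted p below 0.05. Itgam, the gene of the CD11b used in the sort, had a fitted log2 difference of 1.04 with an unadjusted p below 0.05, although its mean was 436 ± 371 CPM in control and 471 ± 294 in aGVHD libraries (SD), and its sign turned (−0.35) in libraries with at least 5 C1q-positive cells. Of the 7 neutrophil genes tested, 6 were positive with a median of 0.58.

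Shares of cells with a transcript, thinned to 1000, are given without a test because cells are not replicates. Cxcl9 was found in 11.1% of 27 control cells (exact binomial interval 2.35 to 29.2) and 34.1% of 41 aGVHD cells (20.1 to 50.6). S100a8 was found in 18.5% (6.30 to 38.1) and 53.7% (37.4 to 69.3). Itgax was found in 25.9% (11.1 to 46.3) and 9.76% (2.72 to 23.1), and Ccr2 in 33.3% (16.5 to 53.96) and 14.6% (5.57 to 29.2). In each of these pairs the intervals overlapped. The share with Il1b was 88.9% in control and 82.9% in aGVHD cells and that with Ccl8 11.1% and 17.1%, both opposite in direction to the fitted differences.

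The third comparison asked whether the aGVHD difference in C1q-positive cells differed from that in reference cells of the same libraries. Of 1157 genes tested with an interaction term and the library as a block, none passed (0%; smallest adjusted p 0.885, limma), and 38 (3.28%) had an unadjusted p below 0.05, 24 positive and 14 negative. A gene was included if it passed the count filter in either class, so more genes were tested than the 429 within C1q-positive cells. An interaction can come from a difference in either class. CPM in this comparison were scaled over both cell classes together and so differ slightly from those above. Cxcl9 averaged 212 ± 232 CPM in control and 985 ± 902 in aGVHD libraries in C1q-positive cells, and 365 ± 314 and 200 ± 208 CPM in reference cells (interaction 2.76 ± 0.78, SE, on the log2 scale; adjusted p = 0.885, limma). The phosphatase gene Dusp2 had an interaction of 1.62 ± 0.51, with 343 and 620 CPM in C1q-positive and 525.9 and 356 CPM in reference cells. Mmp8 went the other way (−2.62 ± 0.82), with 79.2 CPM in control and 867 CPM in aGVHD reference cells against 60.5 and 84.6 CPM in C1q-positive cells. Ccr2 (−2.06), Ifi204 (−1.99), Zyx (−1.74) and Tspo (−2.19) were the others among the 5 negative interactions of smallest p.

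The other genes among the 5 positive interactions of smallest p were the antimicrobial lectin genes Reg3b (3.29 ± 0.87) and Reg3g (2.75 ± 0.88) and the keratin gene Krt8 (3.33 ± 0.99), all known from epithelium. None of these genes passed the count filter within C1q-positive cells, so in the main fit they were tested only because of their counts in reference cells. Most of their transcripts were in reference cells, where Reg3b averaged 2686 ± 4080 CPM in control and 319 ± 592 in aGVHD libraries; in C1q-positive cells it had 14 and 24 transcripts in all. These interactions therefore do not describe a difference in C1q-positive cells. Reg3b passed the threshold in 3 alternatives, among them without control replicate 8 (adjusted p = 0.0294, limma).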

How the data were processed

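CEL-Seq2 was run on sorted cells of the terminal ileum, 22 libraries with 4224 barcodes in all. The values deposited by the authors are estimated transcript counts per gene and barcode, not normalised, each the transform of a whole number of 4096 identifiers. Their tools, per the submitters' processing notes, included BWA 0.6.2-r126 and bcl2fastq 2.17.1.14; the build of the genome was not given in the sources used here. Values were rounded. Barcodes with at least 500 transcripts were kept. C1q-positive and reference cells were chosen by their counts, and the cells and gene lists were chosen with earlier results of these data known. Unnamed gene models (28.3% of the cells' transcripts) were left out of CPM. Sums per library were tested with limma 3.58.1 (R 4.3.3), voom weights, trimmed-mean scaling (0.3 of ratios, 0.05 of levels) and a filter of 10 transcripts at the median library and 15 in total, with Benjamini-Hochberg adjustment; the unit could not be entered as counts in the column check, so no count model was used. Fits were run on simulated sums with known changes, and only the median estimate was required to lie near the change. The simulation used the same dispersion for all genes and no difference between libraries beyond their scaled totals. It therefore does not show how the fits perform at the spread of these libraries. Shares were compared by permutation within title sets (100000 resamples, or exact; Python 3.11.15, scipy 1.17.1). Named genes were the 10 of smallest p per direction (5 for the interaction), the list genes of highest level, the 20 highest and 10 lowest ratios to reference cells, the 10 most abundant and the 10 most variable. Symbols were used as deposited; 19071 of 23091 matched RefSeq, and 4 of the 6 marker genes had a promoter sequence.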

Additional observations from a re-analysis of the deposited data

Results flagged for a closer look

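In 8 of 64 sets of libraries checked, the highest or lowest library lay far from the others of its group; chance alone marks about 1 set in 20. All values are CPM summed over the C1q-positive cells of a library, and no cause was tested. Control replicate 1 held 3 of them: Wfdc17 stood at 0.0 there and at 124.01 or more in the other control libraries, Itgax at 241.7 against 464 or more, and Jun at 1691.6 against 279 or less. Control replicate 8 had the highest Ccl8 of its group, 1105 against 155.01 or less. In aGVHD replicate 1, Serbp1 stood at 741 against 406 or less and Itgam at 1112 against 555 or less. Sat1 stood at 2379 in aGVHD replicate 3, with 1049 as the next value, and Cxcl9 at 2739 in aGVHD replicate 11, with 1257 as the next.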

How the results depend on the processing

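The difference in the share of C1q-positive cells kept its sign in every alternative tried, but it was not past the threshold with a minimum of 250 transcripts (−1.93 points), a C1q sum of at least 2 (−3.40), thinning to 500 transcripts with a C1q sum of at least 1 (−2.31), the G1 set alone (−2.16), a minimum of 250 transcripts of named genes (−3.81) or without the cells rich in T and NK transcripts (−2.15, chosen after seeing the data). Leaving out 1 library gave −4.41 (without control replicate 10) to −2.56 (without control replicate 5); it was not past the threshold without control replicate 1, 5, 7, 8 or 9, or aGVHD replicate 6, 8, 10, 11 or 12. The number of cells per library turned to −0.25 in libraries with at least 20 kept barcodes. Within C1q-positive cells, 5 genes passed with no filter on low counts (Il1f9, Chil1, Chil3, Gadd45a and Nus1), and leaving out 1 library gave 0 to 1 (Tnf, without aGVHD replicate 1). For the interaction, 2 passed in libraries with at least 5 such cells (Aldh1b1 and Reg3b), 4 with no filter (Gdf15, Gpa33, Ccl25 and Napsa) and 1 without the T and NK-rich cells (Reg3b), and leaving out 1 library gave 0 to 1 (Reg3b, without control replicate 8). The cause was not tested. Fitted log2 differences changed sign as follows. H2-Ab1 was 0.31 in libraries with at least 5 cells, 0.10 with all genes in the totals, 0.046 with no filter, 0.37 without S100-rich cells, 0.61 in the G1 set, and −0.27 to 0.18 leaving out 1 library. Apoe was −0.48 in libraries with at least 2 cells, −0.29 thinned, −0.87 in the dated set, and −0.36 to 0.83 leaving out 1 library. Ccl8 was 2.58, 0.18, 1.08 and 2.74 under the first 4 settings named for H2-Ab1 (without the G1 set), 1.75 on log2(CPM + 10), 3.03 in the dated set, 1.84 without T and NK-rich cells, and −1.52 to 2.19 leaving out 1 library. Itgam was −0.35 in libraries with at least 5 cells and −0.064 without T and NK-rich cells. The share of cells with H2-Ab1 was 91.7% thinned to 2000 and 97.1% unthinned; with Apoe it was 51.4% thinned to 500, 80% to 2000 and 92.9% unthinned. With the title number of the dated set as a replicate block (6 pairs, added after seeing the data), the share differed by −3.67 points (exact sign-flip permutation p = 0.0625; smallest possible 0.0312). Same-numbered libraries deviated together at r over 0.1 in 4 of 6 pairs (−0.085 to 0.19 over 2005 genes). In each group, 2 of 6 libraries correlated best with their own number. These values cannot tell whether same-numbered libraries share more than a number. For the gene fits, no paired analysis was possible because only 1 title number of the dated set occurs in both groups among libraries with at least 3 C1q-positive cells. With 57 cells in 12 libraries and 4 control libraries, small differences were not detectable at this depth. Large ones could also fail the test: log2 differences of 2.14 for Wfdc17 and −2.11 for Bhlhe40 did not pass. The lack of passed genes therefore does not exclude large differences.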
